A study of Mus musculus with 24 samples.

Results

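A total of 10 genes of the innate response to misplaced nucleic acids were followed in 4 mouse tumour cell lines edited at B2m. The genes are Tlr3, Ifih1, Ddx58, Dhx58, Zbp1, Mavs, Tmem173, Tbk1, Irf3 and Trex1, chosen by name for their role as sensors, adaptors and regulators. The rule used no measured value, but earlier results of these data were known when the genes were chosen. They are 10 of the 34866 genes with a row in at least 1 of the 4 expression tables. Bulk RNA-seq was made from MC38 colon adenocarcinoma, LLC1 Lewis lung carcinoma, AKR esophageal carcinoma and Hepa1-6 hepatocellular carcinoma cells, all cultured in DMEM with 10% FBS. In every line the cells had received a guide to B2m (sgB2m), the gene of the MHC class I light chain, or a guide with no target (sgNT). There were 3 libraries for each line and guide, 8 groups and 24 libraries in all. The labels do not say whether edited cells were clones or pools, how Cas9 was supplied, or whether the 3 libraries of a group came from separate cultures. Spread among these libraries may thus be technical, and it is all that the p-values take into account.

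Cells detect foreign or misplaced RNA and DNA with a small set of receptors that feed into a shared signalling core. TLR3 (Tlr3) reads double-stranded RNA in endosomes, while RIG-I (Ddx58), MDA5 (Ifih1) and LGP2 (Dhx58) are helicases that bind RNA in the cytosol, and ZBP1 binds left-handed Z-form RNA and DNA. RIG-I and MDA5 signal through MAVS on mitochondria, and DNA sensed by cGAS signals through STING (Tmem173). Both adaptors activate the kinase TBK1, which phosphorylates the transcription factor IRF3 and so starts type I interferon expression, and TREX1 is an exonuclease that degrades cytosolic DNA before it is sensed. Ifih1, Ddx58, Dhx58 and Zbp1 are themselves induced by interferon, whereas Mavs, Tbk1 and Irf3 are expressed in most cells without it.

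Values were deposited as log2 of a normalised count, which is the read count divided by a size factor for the library, with 1 added before the logarithm. Normalised counts below are on the linear scale and are comparable within a line, whose 6 libraries were scaled together. Values set across lines are CPM, read counts scaled to the same total in every library, and values set across genes are also divided by exon length in kilobases (RPKM). A gene rose or fell where limma's moderated test gave an adjusted p under 0.05 over all genes tested in the line, namely those reaching 3.5 on the log2 scale in 3 or more of its 6 libraries. Changes are log2 fold changes of sgB2m over sgNT, given with their standard error.

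Counted reads ranged from 25.0 to 49.7 M per library. B2m fell in every line, with log2 fold changes of -1.78 (MC38), -1.71 (LLC1), -1.57 (AKR) and -1.35 (Hepa1-6) (adjusted p = 2.54e-09, 1.8e-14, 2.25e-08 and 7.52e-13), so its transcript was reduced and not absent. Hepa1-6 expressed all 5 hepatocyte markers examined. In the other lines markers of the labelled tissue were partly missing, with Cdx2 not listed in MC38, Nkx2-1 not listed in LLC1 and Krt5 not listed in AKR. The T and NK cell markers Cd3e, Cd3d, Cd8a, Ncr1 and Nkg7 were not listed in any line, which means 0 reads in all of its 6 libraries. Of the other 2 such markers examined, Cd4 was listed only in MC38 and Lck in every line. Their sum was highest in AKR sgNT, at 3.06 to 3.28 CPM. It was 1.30 to 2.02 CPM in AKR sgB2m, where Lck fell. In MC38 the 1 marker of these that was tested also fell.

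The promoter sequences of the 2 cytosolic RNA sensors that signal through MAVS are shown because interferon-responsive elements of the form GAAANNGAAA are a known feature of such genes, and the sequence of Mavs is shown beside them as that of an adaptor. RefSeq promoter entries (GRCm38.p6, 250 bases before to 50 after the transcription start) were found for 7 of the 10 genes. The motifs GAAANNGAAA and GAAANGAAA, which were searched on both strands and can overlap, were present in 3.44% and 3.17% of 32851 promoters of that length. Of the 7 genes, 2 held GAAANNGAAA and 1 held GAAANGAAA. Capitals mark the match, all sequences read 5′ to 3′ on the strand of the gene, and a Ddx58 match spelled TTTCGATTTC is the motif on the opposite strand. The first line lies within the first 50 transcribed bases of Ifih1 at chr2:62646206-62646235 on the minus strand. The second spans the start of Ddx58 at chr4:40239804-40239833 on the minus strand, and the third gives the 150 bases before that start, chr4:40239826-40239975. The last gives the 150 bases before the start of Mavs, chr2:131233913-131234062 on the plus strand, with no match in its promoter entry.
Ifih1: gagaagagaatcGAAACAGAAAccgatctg
Ddx58, start: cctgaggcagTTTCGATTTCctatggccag
Ddx58, upstream: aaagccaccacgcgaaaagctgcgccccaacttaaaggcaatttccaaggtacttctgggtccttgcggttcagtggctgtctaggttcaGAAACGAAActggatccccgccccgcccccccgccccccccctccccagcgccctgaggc
Mavs, upstream: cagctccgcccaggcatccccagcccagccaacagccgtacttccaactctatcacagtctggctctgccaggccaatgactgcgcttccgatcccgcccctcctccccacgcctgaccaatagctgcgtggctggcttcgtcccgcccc

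The promoter entries of Tlr3, Mavs, Tbk1, Irf3 and Trex1 held neither motif. A match is a run of letters and not a known binding site, and the lack of one says only that these letters are not in this window.

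The 10 genes did not move as a block in any line. In MC38 the RNA sensors Tlr3, Ifih1, Ddx58 and Dhx58 rose together with Zbp1, while Irf3 fell. In LLC1 Mavs, Tmem173 and Tbk1 rose with Tlr3 and Ddx58. In AKR Dhx58, Mavs, Tbk1 and Irf3 rose and Ifih1 fell by a small amount. In Hepa1-6 Zbp1, Irf3 and Trex1 rose, and Tlr3 and Tmem173 fell.

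Of the 40 combinations of gene and line, 37 were tested, 17 rose, 4 fell and 16 did not pass. The remaining 3 held too few reads to be tested, namely Ifih1 in LLC1 and Zbp1 in LLC1 and AKR. No gene rose in more than 2 of the 4 lines. In MC38 6 of 10 genes passed, against 31.8% of all 16532 genes tested, with 5 up (15.9% of all genes) and 1 down (15.8%). In LLC1 5 of 8 passed against 42.4% of 15323, and all 5 were up (20.7%). Irf3 was the only one of the 8 with a negative value, at an unadjusted p of 0.556, and Ifih1, which held too few reads for the test, was lower in sgB2m. In AKR 5 of 9 passed against 42.9% of 15882, with 4 up (21%) and 1 down (21.9%). In Hepa1-6 5 of 10 passed against 37.8% of 14910, with 3 up (18.6%) and 2 down (19.2%). Each of these shares describes a list of at most 10 genes. The 5 rises in MC38 include Zbp1, and the 8 genes tested in LLC1 include Trex1. Each of the 2 was tested because it was high in sgB2m.

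The median log2 fold change of the tested genes was 0.45 for MC38, 0.33 for LLC1, -0.04 for AKR and 0.06 for Hepa1-6, beside medians between -0.01 and 0.01 over all genes tested in each line. The sizes without sign had medians of 0.45, 0.33, 0.20 and 0.13 in the same order, beside 0.23, 0.23, 0.26 and 0.21 over all genes. Only MC38 and LLC1 had a median size above that of all genes. The medians of both lines include a gene tested because it was high in sgB2m, Zbp1 in MC38 and Trex1 in LLC1.

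**Figure D1:**
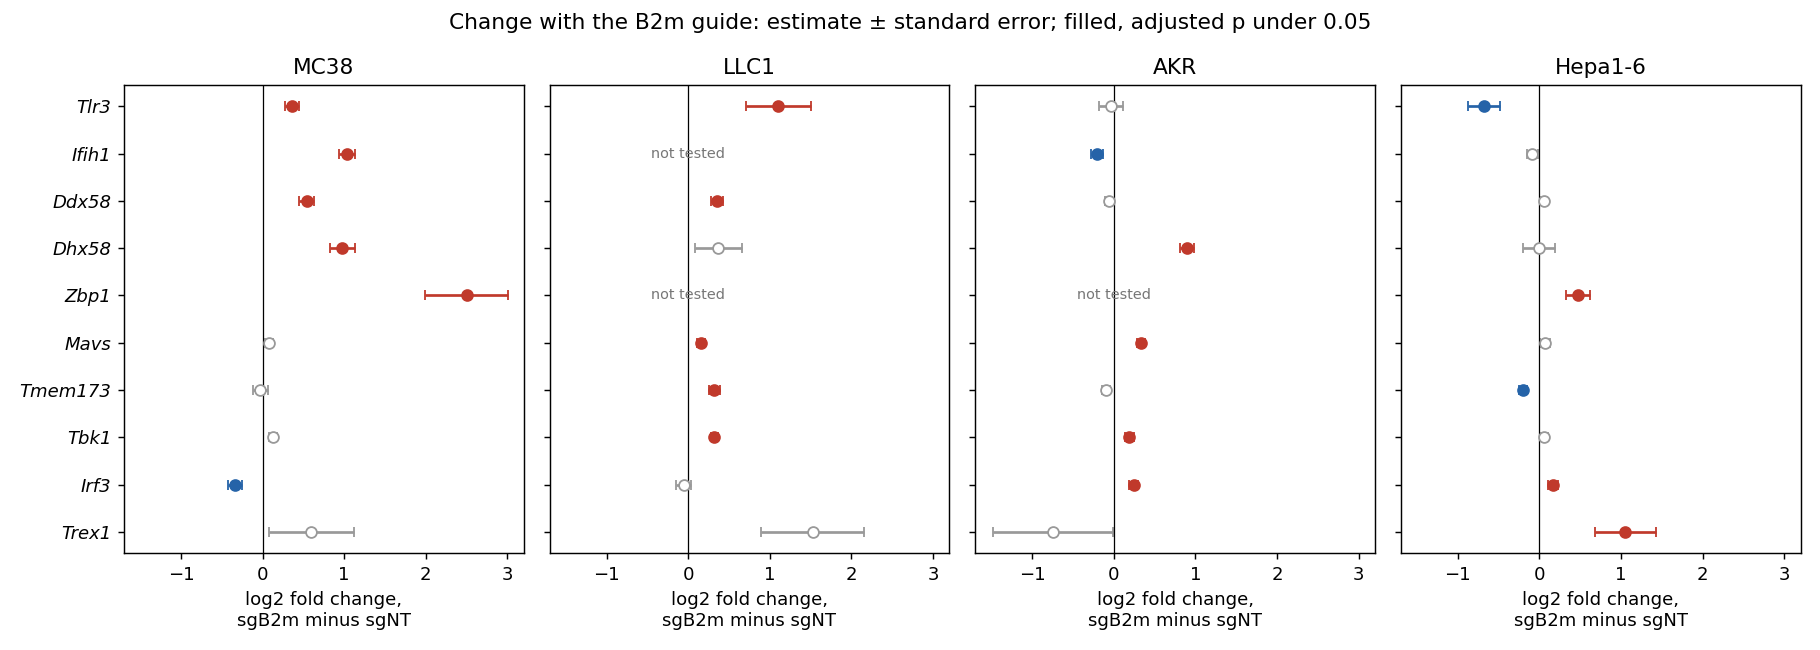
Log2 fold change of sgB2m over sgNT for each gene (rows) in each line (panels), with the standard error as bars and filled points where the adjusted p was under 0.05. The 4 RNA sensors and Zbp1 lie right of 0 in MC38, whereas in Hepa1-6 Tlr3 and Tmem173 lie left of 0 and Zbp1, Irf3 and Trex1 right of it.

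The lines differed in which sensors their sgNT cells expressed. In the sgNT cells Ifih1 stood at 36.2 ± 2.4 CPM in Hepa1-6, 23.3 ± 1.6 in AKR, 9.49 ± 0.68 in MC38 and 0.30 ± 0.22 in LLC1 (SD, n = 3), and no 2 neighbouring lines overlapped. LLC1 thus had almost no MDA5 transcript. Ddx58 was highest in AKR at 99.8 ± 1.1 and Hepa1-6 at 95.8 ± 1.5, and lower in LLC1 at 29.2 ± 1.4 and MC38 at 20.7 ± 2.3, again without overlap between neighbours. Tlr3 had the opposite leader, with 13.6 ± 0.0067 in MC38, 5.36 ± 0.99 in Hepa1-6, 4.62 ± 0.48 in AKR and 1.20 ± 0.69 in LLC1. Only Hepa1-6 and AKR overlapped in that order. The near identity of the 3 MC38 sgNT values of Tlr3 makes their SD far smaller than those of the other groups.

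Dhx58 stood at 8.21 ± 0.44 CPM in AKR, 4.90 ± 0.79 in Hepa1-6, 3.78 ± 0.50 in MC38 and 1.83 ± 0.75 in LLC1, and the 2 in the middle overlapped. Zbp1 was at 5.37 ± 0.31 in Hepa1-6 and at 0.29 ± 0.22 or less in the other lines, whose neighbours in the order overlapped. In LLC1 no Zbp1 read was counted in 6 libraries, and a count of 0 allows up to 3 reads, or 0.107 to 0.115 CPM, in a library, counting error only.

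The shared core varied less between lines. Mavs, the adaptor of RIG-I and MDA5, ranged from 58.1 ± 1.1 CPM in MC38 over 67.6 ± 1.0 in LLC1 and 70.9 ± 0.76 in AKR to 71.8 ± 0.94 in Hepa1-6, and the last 2 overlapped. Irf3 ranged from 23.5 ± 0.53 in LLC1 over 29.4 ± 2.4 in MC38 and 32.8 ± 0.092 in Hepa1-6 to 35.3 ± 1.3 in AKR. Tbk1 was highest in Hepa1-6 at 134 ± 2.8, followed by MC38 at 74.7 ± 1.1, AKR at 68.2 ± 1.2 and LLC1 at 57.3 ± 0.67. Neither Irf3 nor Tbk1 overlapped between neighbouring lines. Tmem173, the gene of STING, stood at 103.7 ± 3.7 in AKR, 80.3 ± 1.5 in Hepa1-6, 40.2 ± 3.4 in MC38 and 32.5 ± 2.3 in LLC1, without overlap. Trex1 was low throughout, from 0.195 ± 0.15 in LLC1 to 1.87 ± 1.25 in AKR. The tables of the lines were normalised separately, so these orders were not tested.

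Per length of exon, Mavs, Tbk1 and Tmem173 stood above every sensor in each line. In MC38 sgNT Tbk1 was at 19.1, Mavs at 17.4, Tmem173 at 14.7 and Irf3 at 8.55 RPKM, while Ddx58 was at 2.93, Tlr3 at 2.62, Ifih1 at 1.16, Dhx58 at 1.15, Trex1 at 0.703 and Zbp1 at 0.0811. In Hepa1-6 sgNT Ddx58, at 13.6 RPKM, stood above Irf3 at 9.53, and in AKR sgNT it stood at 14.2 against 10.2. Exon lengths were those of the GENCODE M21 annotation, which need not be the one used for counting.

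**Figure D2:**
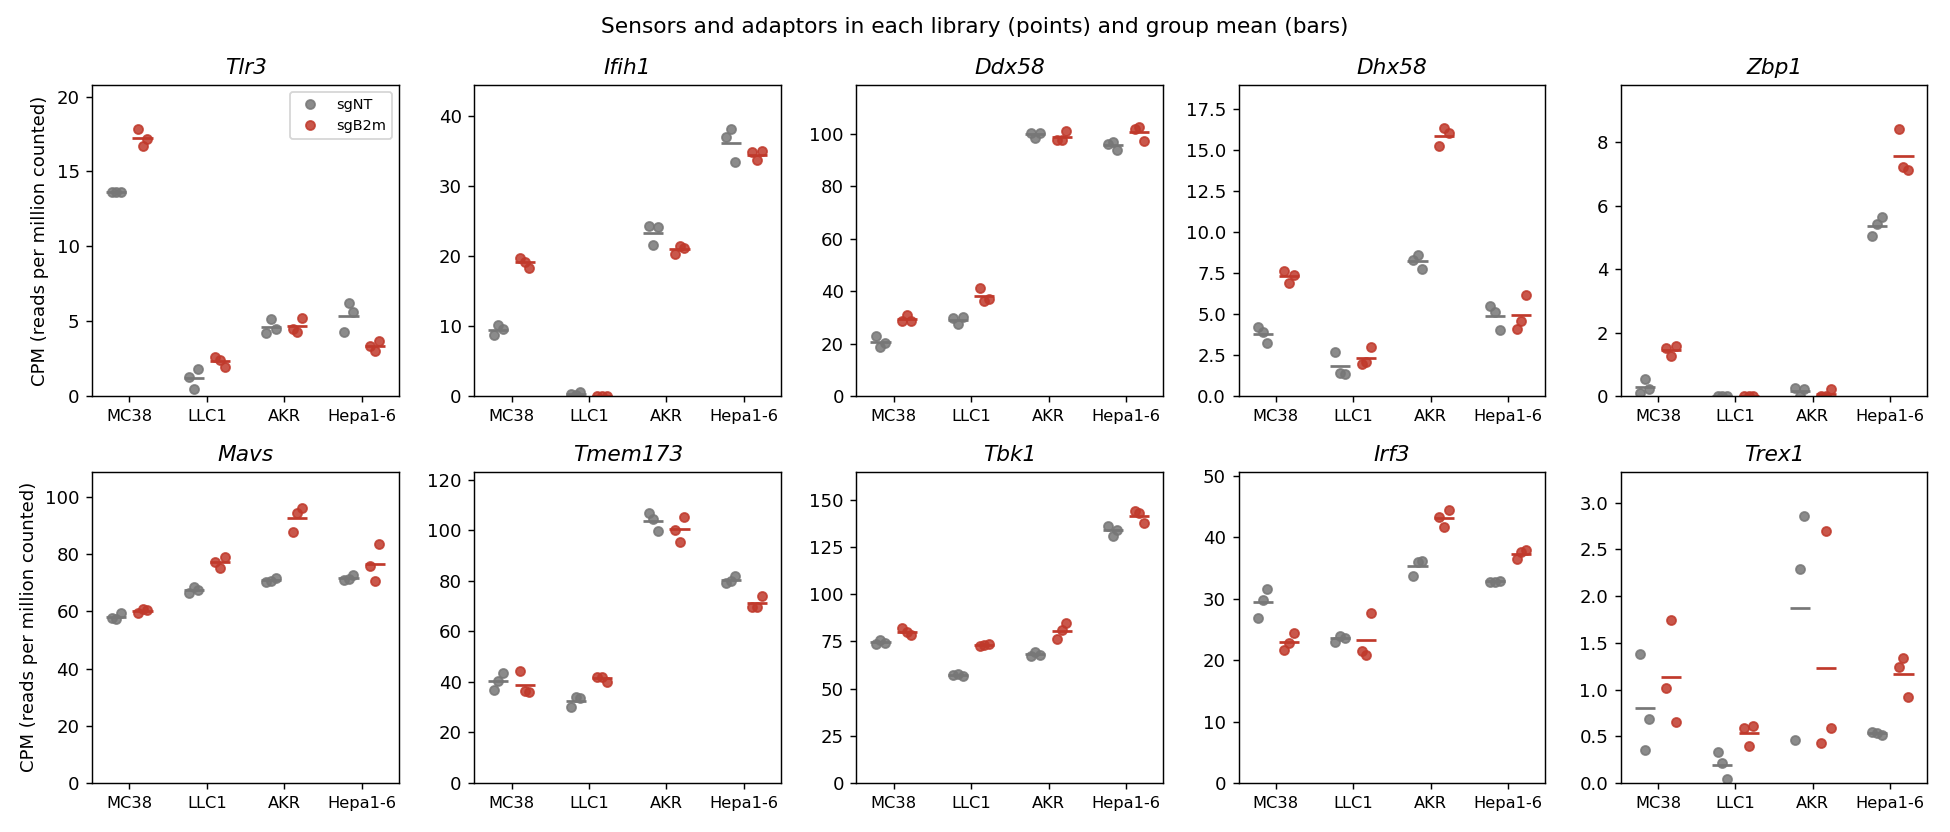
CPM (vertical axes, each from 0) for each gene in each library, with sgNT in grey, sgB2m in red and the group mean as a bar. Ifih1 and Zbp1 are close to 0 in LLC1, and the sgB2m points of Ifih1, Dhx58 and Zbp1 in MC38 lie above all sgNT points.

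Tlr3 (ENSMUSG00000031639, mm10 chromosome 8 at 45395665 to 45411080, minus strand) rose in MC38 and LLC1 and fell in Hepa1-6. In MC38 its normalised counts were 489, 483 and 487 in sgNT and 645, 603 and 626 in sgB2m. All 3 sgB2m libraries were higher (0.36 ± 0.084, adjusted p = 0.00889). In LLC1 the counts were 35.6, 12.8 and 50.4 in sgNT and 71.4, 65.9 and 52.6 in sgB2m (1.11 ± 0.39, adjusted p = 0.0354). The groups did not overlap, but sgNT replicate 2 was far below the other 2, and without it the value was 0.56 and no longer passed (adjusted p = 0.138). It also missed the threshold without sgB2m replicate 1 (0.0886) or sgB2m replicate 2 (0.0892).

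In Hepa1-6 Tlr3 counts were 121, 176 and 161 in sgNT and 94.0, 84.1 and 104 in sgB2m. Every sgB2m library was lower, a fall by 0.68 ± 0.20 on the log2 scale (adjusted p = 0.0121). Without sgNT replicate 2 the adjusted p was 0.0642. In AKR the groups overlapped, with 132, 162 and 142 against 137, 129.6 and 158 (-0.04 ± 0.15, adjusted p = 0.858). Within 5 Mb of Tlr3 in MC38, 51.3% of 39 tested genes fell and 12.8% rose, with a median of -0.22, so Tlr3 moved against its neighbours there. An antisense gene, Gm45542, covers 7.3% of the exon length of Tlr3. Whether counting used the strand is not given in the sources used here, and without it reads of such a pair cannot be told apart.

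The change of Tlr3 differed between lines (interaction of line and guide, adjusted p = 0.00327). Hepa1-6 differed from MC38 by 1.04 (95% interval 0.61 to 1.48, adjusted p = 0.000808), from LLC1 by 1.79 (0.72 to 2.85, adjusted p = 0.00916) and from AKR by 0.64 (0.12 to 1.17, adjusted p = 0.0492). The rise in MC38 was not distinguishable from that in LLC1, where the difference of -0.75 had an interval from -1.74 to 0.25 (adjusted p = 0.224).

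Ifih1 (ENSMUSG00000026896, chromosome 2 at 62595798 to 62646255, minus strand) encodes MDA5, which binds long double-stranded RNA. In MC38 its normalised counts were 313, 357 and 344 in sgNT and 713, 693 and 667 in sgB2m. Every sgB2m library was well above every sgNT library, and the rise was 2.04-fold (1.03 ± 0.095, adjusted p = 3.76e-05). This was the smallest adjusted p among the 10 genes in MC38, and it passed in each of the 14 alternatives in which the gene was tested.

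LLC1 showed the reverse at the edge of detection. The 3 sgNT libraries held 7, 3 and 14 reads of Ifih1 and the 3 sgB2m libraries held 0, 0 and 0. The gene did not reach the level for testing, and with no such filter its difference passed (adjusted p = 0.00928). Its sgNT mean was 2.82-fold that of 3 reads per library, taken as the limit for the sgB2m zeros. Counting error of the sgNT reads is not covered by this value. The groups did not overlap, though 1 sgNT library stood at the floor itself. Of the 3 genes on each side of it, Fap, Gcg, Gca and Kcnh7 were not listed in LLC1, Dpp4 held 20 reads in sgB2m and 0 in sgNT, and Fign held 8 and 37.

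In AKR Ifih1 counts were 756, 677 and 766 in sgNT and 621, 649.9 and 639.7 in sgB2m, a small fall without overlap (-0.20 ± 0.074, adjusted p = 0.048). This call rested on the threshold. It was lost on leaving out any single library other than sgNT replicate 2. Leaving out sgB2m replicate 1, 2 or 3 gave an adjusted p of 0.0948, 0.065 or 0.101, and leaving out sgNT replicate 1 or 3 gave 0.143 or 0.157. Of 24 genes tested within 5 Mb, 45.8% fell and the others did not pass, with a median of -0.17. In Hepa1-6 the counts of 1049, 1079.7 and 959 against 975, 939 and 988 overlapped (-0.09 ± 0.068, adjusted p = 0.354). The change in MC38 exceeded that in AKR by 1.23 (0.99 to 1.47, adjusted p = 1.03e-06) and that in Hepa1-6 by 1.12 (0.88 to 1.35, adjusted p = 1.58e-06).

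Ddx58 (ENSMUSG00000040296, chromosome 4 at 40203773 to 40239828, minus strand) encodes RIG-I, which binds RNA ends that carry a triphosphate. Its normalised counts in MC38 were 828, 659.8 and 722 in sgNT and 1032, 1123 and 1042 in sgB2m, without overlap (0.54 ± 0.094, adjusted p = 0.00194). In LLC1 they were 819.9, 769 and 831 against 1122, 981 and 988, again without overlap (0.35 ± 0.070, adjusted p = 0.00098). By CPM, Ddx58 was lower in the sgNT cells of these 2 lines than in those of the other 2. A link between level and change was not tested. In AKR, which had the highest level, 3130.3, 3108 and 3183 stood against 2979, 2964 and 3069. The sgB2m libraries were all lower there, yet the difference did not pass (-0.06 ± 0.043, adjusted p = 0.255). In Hepa1-6 2722, 2757 and 2698 overlapped with 2861, 2869.7 and 2755 (0.05 ± 0.042, adjusted p = 0.35).

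The changes of Ddx58 separated the lines into 2 pairs. The interaction had an adjusted p of 1.06e-05, the smallest of the 8 genes tested this way. MC38 exceeded AKR by 0.60 (0.39 to 0.82, adjusted p = 0.000247) and Hepa1-6 by 0.48 (0.27 to 0.70, adjusted p = 0.0013). LLC1 exceeded AKR by 0.42 (0.25 to 0.58, adjusted p = 0.000519) and Hepa1-6 by 0.30 (0.13 to 0.46, adjusted p = 0.00584). Within the pairs, MC38 minus LLC1 was 0.19 (-0.07 to 0.44, adjusted p = 0.239) and AKR minus Hepa1-6 was -0.12 (-0.23 to -0.0077, adjusted p = 0.0827).

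Dhx58 (ENSMUSG00000017830, chromosome 11 at 100694884 to 100704271, minus strand) encodes LGP2, a relative of RIG-I and MDA5 that lacks their signalling domains and modulates them. In MC38 it doubled, from normalised counts of 150.4, 138 and 115 to 276, 249 and 269 (0.98 ± 0.15, adjusted p = 0.000982). In AKR it rose by nearly as much, from 258, 271 and 246 to 465, 495 and 485 (0.90 ± 0.089, adjusted p = 1.94e-05). Neither pair of groups overlapped, and the 2 rises differed by 0.08 with an interval from -0.27 to 0.43 (adjusted p = 0.735). In AKR, unlike in MC38, Dhx58 rose without Ifih1 and Ddx58.

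In LLC1 Dhx58 counts were 74.2, 39.5 and 37.8 against 53.5, 57.1 and 79.4, which overlapped (0.37 ± 0.29, adjusted p = 0.327). In Hepa1-6 they were 156, 146 and 115 against 115, 129 and 174, also with overlap (-0.01 ± 0.20, adjusted p = 0.975). The rises in MC38 and AKR both exceeded the value in Hepa1-6, by 0.99 (0.43 to 1.55, adjusted p = 0.00746) and 0.91 (0.43 to 1.38, adjusted p = 0.004). Against LLC1 the differences of 0.61 (-0.13 to 1.35) for MC38 and 0.53 (-0.13 to 1.19) for AKR did not pass (adjusted p = 0.183 and 0.193). The antisense gene Dhx58os covers 4.3% of the exon length.

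Zbp1 (ENSMUSG00000027514, chromosome 2 at 173206612 to 173218923, minus strand) was tested in 2 lines and rose in both. In MC38 the sgNT libraries held 4, 15 and 11 reads and the sgB2m libraries 51, 42 and 61. The normalised counts were 3.88, 18.7 and 7.9 against 55.3, 45.6 and 58.0, without overlap, and the rise was 5.65-fold (2.50 ± 0.51, adjusted p = 0.00448). Of the MC38 libraries 3 of sgB2m and 1 of sgNT reached the level for testing, so the gene was tested because it was high in sgB2m, and its difference from other lines carries the same limit. The log2 fold change ran from 1.82 to 3.03 over the 14 alternatives in which it was tested, and the test passed in each.

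In Hepa1-6, the line with the highest Zbp1 in sgNT cells, 143, 154 and 162 rose to 236, 202 and 201 (0.47 ± 0.15, adjusted p = 0.0203). The groups did not overlap. Without sgB2m replicate 1 the adjusted p was 0.0907, and without sgNT replicate 1 it was 0.0701. The rise in MC38 exceeded that in Hepa1-6 by 2.03 (0.91 to 3.15, adjusted p = 0.00623). In AKR the reads were 7, 0 and 7 in sgNT and 0, 0 and 7 in sgB2m, too few for a comparison.

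ZBP1 signals cell death through the kinase RIPK3 and the pore-forming protein MLKL. Ripk3 was looked up after its values were seen. It held 5494 reads in AKR sgB2m and 5541 in AKR sgNT, 23 and 10 in MC38, and 0 and 3 in LLC1, and was not listed in Hepa1-6. The 2 lines with Zbp1 transcript thus had little or no Ripk3 transcript, and the line with abundant Ripk3 had little Zbp1. Mlkl, also looked up after its values were seen, was expressed in all 4 lines. It fell in MC38 (-0.29 ± 0.050, adjusted p = 0.00165), LLC1 (-0.18 ± 0.050, adjusted p = 0.00829) and Hepa1-6 (-0.31 ± 0.050, adjusted p = 0.000149) and rose in AKR (0.20 ± 0.048, adjusted p = 0.00544). Of Casp8 and Cflar, regulators of the same death pathway that were looked up likewise, Casp8 rose in AKR (adjusted p = 0.00328), and Cflar fell in AKR (adjusted p = 0.0491) and rose in Hepa1-6 by 0.41 ± 0.042. Of these 4 partners, 33.3% of those tested were called in MC38 and in LLC1, 75% in AKR and 66.7% in Hepa1-6. The shares over all genes were 31.8%, 42.4%, 42.9% and 37.8% in the same order. Each share of the partners rests on 3 or 4 genes.

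Mavs (ENSMUSG00000037523, chromosome 2 at 131234063 to 131248025, plus strand) changed most in AKR. Its normalised counts there were 2194, 2224 and 2275 in sgNT and 2676, 2859 and 2910.5 in sgB2m, a rise of 1.26-fold without overlap (0.33 ± 0.049, adjusted p = 0.000294). In LLC1 a smaller rise was measured with tight replicates, from 1834, 1906 and 1857 to 2096, 2041 and 2108 (0.16 ± 0.045, adjusted p = 0.0109). In MC38 2064, 2024 and 2118 stood against 2156, 2193 and 2203. Those groups did not overlap either, but the difference did not pass (0.08 ± 0.052, adjusted p = 0.29). In Hepa1-6 2015, 2025 and 2088 overlapped with 2125, 1969.9 and 2364 (0.07 ± 0.060, adjusted p = 0.388).

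AKR exceeded each other line for Mavs, MC38 by 0.26 (0.12 to 0.39, adjusted p = 0.00501), LLC1 by 0.18 (0.046 to 0.31, adjusted p = 0.0307) and Hepa1-6 by 0.26 (0.088 to 0.44, adjusted p = 0.0179). The rise in LLC1 was not distinguishable from the value in MC38, where MC38 minus LLC1 was -0.08 (-0.21 to 0.049, adjusted p = 0.317). Mavs lies 9.09 Mb from B2m on chromosome 2. In AKR 14.7% of the 102 genes tested within 5 Mb of Mavs rose and 29.4% fell, with a median of -0.05.

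Tmem173 (ENSMUSG00000024349, chromosome 18 at 35733679 to 35740554, minus strand) rose in 1 line and fell in another. In LLC1 823, 942 and 929 normalised counts rose to 1142, 1141 and 1070.5 (0.32 ± 0.067, adjusted p = 0.00155). In Hepa1-6 2243, 2265 and 2351 fell to 1948, 1947 and 2090.0 (-0.20 ± 0.049, adjusted p = 0.00488). Neither pair of groups overlapped, and the 2 lines differed by 0.51 (0.34 to 0.69, adjusted p = 9.97e-05).

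In AKR Tmem173 counts of 3334, 3292 and 3158 overlapped with 3061, 2892 and 3188 (-0.10 ± 0.050, adjusted p = 0.138), and with libraries centred on their medians the value was -0.14 and passed (adjusted p = 0.0455). In MC38 1315, 1432 and 1555 overlapped with 1601, 1317 and 1311 (-0.03 ± 0.094, adjusted p = 0.858). Of the 137 genes tested within 5 Mb of Tmem173 in MC38, 42.3% fell, and the median over the 436 genes of chromosome 18 was -0.21. The value of Tmem173 itself lay closer to 0 than both. Cgas, the enzyme that makes the ligand of STING, was looked up after its values were seen. It was not listed in Hepa1-6 and held 12 and 6 reads in LLC1 sgB2m and sgNT, so the 2 lines in which Tmem173 changed had little or no Cgas transcript. In MC38 its mean was 223 ± 33 in sgB2m against 240.0 ± 35 in sgNT, and in AKR 191 ± 21 against 186 ± 15 (adjusted p = 0.677 and 0.844).

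Tbk1 (ENSMUSG00000020115, chromosome 10 at 121546455 to 121586787, minus strand) was the only one of the 10 genes whose sgB2m libraries lay above all sgNT libraries in each of the 4 lines. Across genes, the groups did not overlap in either direction for 45% of those tested in MC38, 51.8% of those in LLC1, 52.5% for AKR and 47.6% for Hepa1-6. These shares take each line alone, and the share of genes higher in all 4 lines was not computed. In LLC1 1582, 1604 and 1553 rose to 1965, 1975 and 1973 (0.32 ± 0.046, adjusted p = 5.76e-05). In AKR 2098, 2191 and 2149.5 rose to 2335, 2457 and 2568 (0.19 ± 0.051, adjusted p = 0.0111), with an adjusted p of 0.0572 once sgB2m replicate 3 was left out.

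The other 2 lines did not pass for Tbk1. MC38 had 2646, 2686 and 2649 against 2967, 2893 and 2855 (0.13 ± 0.048, adjusted p = 0.0715), which passed with a spread estimated over all 24 libraries (adjusted p = 0.00802). Hepa1-6 had 3865, 3714 and 3849.6 against 4040.4, 3993 and 3894 (0.06 ± 0.037, adjusted p = 0.221). The size differed between lines (interaction adjusted p = 0.000923). LLC1 exceeded MC38 by 0.19 (0.071 to 0.31, adjusted p = 0.0139) and Hepa1-6 by 0.26 (0.15 to 0.36, adjusted p = 0.00065).

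Irf3 (ENSMUSG00000003184, chromosome 7 at 44997648 to 45002848, plus strand) fell in MC38, the line in which the sensors rose. Its normalised counts were 965, 1053 and 1128 in sgNT and 781, 823 and 889 in sgB2m, without overlap (-0.33 ± 0.086, adjusted p = 0.0145). Without sgB2m replicate 1 the value was -0.29 (adjusted p = 0.0605). In AKR 1051, 1134 and 1143 rose to 1323, 1263 and 1346 (0.24 ± 0.060, adjusted p = 0.00759). In LLC1 632, 666 and 649 overlapped with 582, 564 and 739 (-0.06 ± 0.096, adjusted p = 0.664).

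In Hepa1-6 928, 930.0 and 943 stood below 1023, 1049.8 and 1072 (0.17 ± 0.063, adjusted p = 0.0494). The groups did not overlap, but the call was lost on leaving out any 1 of the 6 libraries. Leaving out sgB2m replicate 1, 2 or 3 gave an adjusted p of 0.0669, 0.098 or 0.12, and leaving out sgNT replicate 1, 2 or 3 gave 0.114, 0.0997 or 0.0901. The change in MC38 differed from that in AKR by -0.58 (-0.79 to -0.36, adjusted p = 0.000446) and from that in Hepa1-6 by -0.50 (-0.72 to -0.28, adjusted p = 0.00112). AKR and Hepa1-6 differed by 0.07 (-0.092 to 0.24, adjusted p = 0.481). Bcl2l12 on the other strand covers 2.6% of the exon length of Irf3.

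Trex1 (ENSMUSG00000049734, chromosome 9 at 109057933 to 109059734, minus strand) was the least certain of the 10, because its 1147 bases of exon all lie within exons of Atrip on the same strand. How reads of the 2 genes were divided is not given in the sources used here. Atrip had between 423 and 941 normalised counts in the 24 libraries and its change passed in no line by limma's test (adjusted p = 0.979, 0.508, 0.299 and 0.0872 in MC38, LLC1, AKR and Hepa1-6). Trex1 itself had 1 to 94 reads per library.

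In Hepa1-6 Trex1 rose from 15.5, 15.3 and 14.6 to 34.9, 37.5 and 26.0 normalised counts (1.05 ± 0.37, adjusted p = 0.0372), without overlap. The call was lost without sgB2m replicate 1 or 2 (0.0953 and 0.115) and without any sgNT library (0.0661, 0.0632 and 0.0778 for replicates 1, 2 and 3). In LLC1 9.14, 5.93 and 1.05 stood below 15.9, 10.8 and 16.3 (1.53 ± 0.63, adjusted p = 0.0679), and the gene was tested there only through its sgB2m libraries. Without sgNT replicate 1 it passed, at 2.0 (adjusted p = 0.0301), and without sgNT replicate 3 it was at 0.85 (adjusted p = 0.225). With 8 added before the logarithm in place of 1 it was at 0.78 (adjusted p = 0.0616). The libraries of MC38, with 49.5, 12.5 and 24.4 against 36.9, 62.9 and 23.8, and those of AKR, with 14.3, 72.0 and 90.5 against 12.9, 81.6 and 17.9, were spread widely and overlapped (0.60 ± 0.52 and -0.75 ± 0.73, adjusted p = 0.424 and 0.447). The change of Trex1 was not shown to differ between lines (interaction adjusted p = 0.16).

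Across the 8 genes that could be tested in all 4 lines, 7 had a change that differed between lines, beside 69.8% of the 12674 genes tested this way. Of the 52 differences between 2 lines that could be computed for the 10 genes, 22 passed, or 42.3%, beside 40.6% of all such differences over all genes. By pair of lines the genes that differed were 2 of 8 between MC38 and LLC1 (37.9% of all genes), 4 of 9 between MC38 and AKR (44.2%), 6 of 10 between MC38 and Hepa1-6 (35.6%), 3 of 8 between LLC1 and AKR (40.3%), 4 of 8 between LLC1 and Hepa1-6 (44.8%) and 3 of 9 between AKR and Hepa1-6 (40.5%). The share over all pairs was near that of genes at large.

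Genes that work beside the 10 were described from 9 lists with 87 genes. In MC38 27 of the 81 tested rose and 11 fell, and 46.9% were called against 31.8% of all genes. The counts were 18 and 19 of 77 in LLC1 (48.1% against 42.4%), 25 and 23 of 83 in AKR (57.8% against 42.9%), and 21 and 19 of 79 in Hepa1-6 (50.6% against 37.8%). The median log2 fold change of these genes was 0.079 for MC38, 0.015 for LLC1, 0.034 for AKR and 0.015 for Hepa1-6. Only in MC38 were there more than 2 rises for each fall.

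In MC38 the 27 rises comprised 9 other sensors, 6 output genes, 4 adaptors and kinases, 4 brakes, 3 nucleases and editors and 1 gene of STING handling. Of 9 other DNA sensors tested, 4 rose and 1 fell (55.6% called), led by the interferon-inducible DNA-binding genes Ifi204 (2.21 ± 0.063, adjusted p = 1.08e-08), Ifi203 (1.49 ± 0.12, adjusted p = 1.56e-05) and Aim2 (1.28 ± 0.10, adjusted p = 1.7e-05). Of 9 other RNA sensors, 5 rose and 1 fell (66.7% called), and both shares stood beside 31.8% of all genes. The rises included the endosomal receptor Tlr7 (1.57 ± 0.50) and the helicase Ddx60 (0.69 ± 0.23). Both missed the threshold without sgB2m replicate 1, 2 or 3 or sgNT replicate 3, with adjusted p between 0.0735 and 0.116 for Tlr7 and between 0.0511 and 0.133 for Ddx60. Irf7, the interferon-induced relative of Irf3, rose (1.14 ± 0.22, adjusted p = 0.00322). So did Trim56, a ligase described as acting on STING (0.67 ± 0.064, adjusted p = 5.15e-05), and Rnf125, a ligase that marks RIG-I and MDA5 for degradation (1.12 ± 0.29, adjusted p = 0.0155, or 0.0654 without sgB2m replicate 1).

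Of 10 output genes tested in MC38, which are interferon and interferon-induced genes, 6 rose and 4 did not pass (60% called against 31.8% of all genes), with a median of 0.63. Ifit3 rose from 234 ± 42 to 667 ± 44 (1.52 ± 0.14, adjusted p = 4.2e-05), Ifit1 rose by 1.71 ± 0.44 (adjusted p = 0.0141, or 0.0502 without sgB2m replicate 3), and Ifi44 rose by 3.53 ± 0.78 from only 11 reads to 107 (adjusted p = 0.00701). No sgNT library of Ifi44 reached the level for testing, so it was tested only because it was high in sgB2m. Ifnb1, the interferon gene itself, was not listed in MC38. Among cofactors and ligases of RIG-I and MDA5, 3 of 8 fell and 5 did not pass (37.5% called, near the 31.8% of all genes), with Mex3c, a ligase described as activating RIG-I, at -0.59 ± 0.051 (adjusted p = 2.48e-05).

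In LLC1, of 9 output genes tested 4 rose and 5 did not pass, with a median of 0.68. That median includes Ifi44, which did not pass and reached the level for testing in 2 sgB2m libraries and 1 sgNT library. The 44.4% called was near the 42.4% of all genes, of which 20.7% were up. Ifit3 rose by 2.11 ± 0.24 (adjusted p = 5.38e-06), Ifit1 by 1.73 ± 0.47 (adjusted p = 0.00859, or 0.0781 without a filter) and Ifit2, the most abundant of the 3, from 1861 ± 87 to 2983 ± 104 (0.68 ± 0.048, adjusted p = 6.4e-08). Irf7 rose by 1.17 ± 0.32 (adjusted p = 0.00808) and Tlr7 by 1.46 ± 0.42 (adjusted p = 0.0111), and without sgB2m replicate 2 these were at 0.0524 and 0.0734. Of the other DNA sensors 5 of 9 fell and 1 rose, and of the other RNA sensors 3 of 6 fell and 1 rose. The 66.7% called in each stood beside 42.4% of all genes called, and 21.8% of all genes fell. Of the brakes on the adaptors 3 of 11 fell and 8 did not pass. The 27.3% called was below the 42.4% of all genes, but these calls were all falls, beside 21.8% of all genes that fell. The mitochondrial nuclease gene Exog fell (-0.64 ± 0.14, adjusted p = 0.00175).

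In AKR output genes went both ways, with 3 up and 3 down of 10 (60% called against 42.9% of all genes). Ifit2 (0.73 ± 0.16) and Rsad2, the gene of viperin (0.73 ± 0.071), rose, while Ifi44 fell by 1.10 ± 0.13 on the log2 scale (adjusted p = 0.00331, 1.62e-05 and 6.01e-05). With a spread pooled over 24 libraries Rsad2 and Ifi44 missed the threshold (0.0626 and 0.213). Of 15 adaptors and kinases 5 rose and 2 fell, and the 46.7% called was near the 42.9% of all genes. Those that rose included Ikbke, the sister kinase of TBK1 (0.83 ± 0.080, adjusted p = 1.53e-05), and the transcription factors Irf5 (0.69 ± 0.093, adjusted p = 0.000155) and Irf7 (0.68 ± 0.10, adjusted p = 0.000337). Other RNA sensors fell in 5 of 7 cases (71.4% called), beside 21.9% of all genes that fell. Among them Zcchc3, a cofactor of RNA and DNA sensing, was at -0.59 ± 0.061 (adjusted p = 2.74e-05).

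Brakes were mixed in AKR, with 3 up and 3 down of 11 (54.5% called against 42.9% of all genes). The mitochondrial protein gene Nlrx1 (0.79 ± 0.20) and Tnip1 (0.63 ± 0.067), which restrains NF-kB signalling, rose, and Itch, a ligase that marks MAVS for degradation, fell by 0.60 ± 0.064 on the log2 scale (adjusted p = 0.00752, 3.1e-05 and 3.32e-05). Nlrx1 missed the threshold with the pooled spread (0.257). Dnase2a, the lysosomal nuclease, rose by 0.78 ± 0.087 (adjusted p = 4.42e-05). Tlr9, the endosomal DNA receptor, rose from 7 reads to 107 (4.19 ± 0.78, adjusted p = 0.00136), a size that depends on the constant added before the logarithm. No sgNT library of Tlr9 reached the level for testing, so it was tested only because it was high in sgB2m. The myeloid markers, of which 6 of 8 were listed in AKR and Adgre1 and Spi1 had 0 reads, summed to between 86.7 and 92.1 CPM in sgNT and between 238 and 248 in sgB2m. Only 3 of these markers were tested in AKR, of which 2 rose and 0 fell. Their part in the AKR results was not tested.

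In Hepa1-6 the 2 pathway genes with the largest changes that passed were Tnfaip3 and Ikbke. Ikbke rose 4-fold, from 1287 ± 33 to 5167 ± 102 normalised counts (2.0 ± 0.044, adjusted p = 1.88e-14), and Traf2, an adaptor of such kinases, rose by 0.83 ± 0.098 (adjusted p = 6.37e-06). Of 11 brakes 4 rose and 7 did not pass, and the 36.4% called was near the 37.8% of all genes. The rises included the NF-kB-induced deubiquitinase gene Tnfaip3, from 418 ± 37 to 2449 ± 229 (2.55 ± 0.083, adjusted p = 2.75e-12), Tnip1 (0.82 ± 0.072, adjusted p = 2.54e-07) and Cyld (0.64 ± 0.053, adjusted p = 1.19e-07). Output genes again split, with 3 up and 3 down of 10 (60% called). The chemokine genes Cxcl10 (1.22 ± 0.11, adjusted p = 2.04e-07) and Ccl5 (1.18 ± 0.41, adjusted p = 0.0338) rose, and Ccl5 rested on 119 and 57 reads and missed the threshold without sgB2m replicate 1 or 2 or sgNT replicate 1 (0.0751, 0.157 and 0.12).

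RNA sensors outside the 10 fell in 4 of 7 cases and rose in 2 in Hepa1-6 (85.7% called against 37.8% of all genes). Among those that fell, the nuclear helicase gene Dhx9 was at -0.83 ± 0.028 (adjusted p = 4.22e-12). Endog, a mitochondrial nuclease gene, fell by 0.93 ± 0.19 on the log2 scale (adjusted p = 0.00136). Myeloid markers, 7 of 8 listed and Adgre1 with 0 reads, summed to between 38.1 and 39.0 CPM in sgNT and between 66.4 and 71.6 in sgB2m. The markers did not all move with the sum, since of the 4 tested 2 rose and 1 fell. Their part in the Hepa1-6 results was not tested. In MC38 and LLC1 the same sums did not increase, with 47.3 to 53.9 in sgNT against 45.5 to 51.2 in sgB2m, and 18.2 to 23.4 against 13.4 to 16.4.

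**Figure D3:**
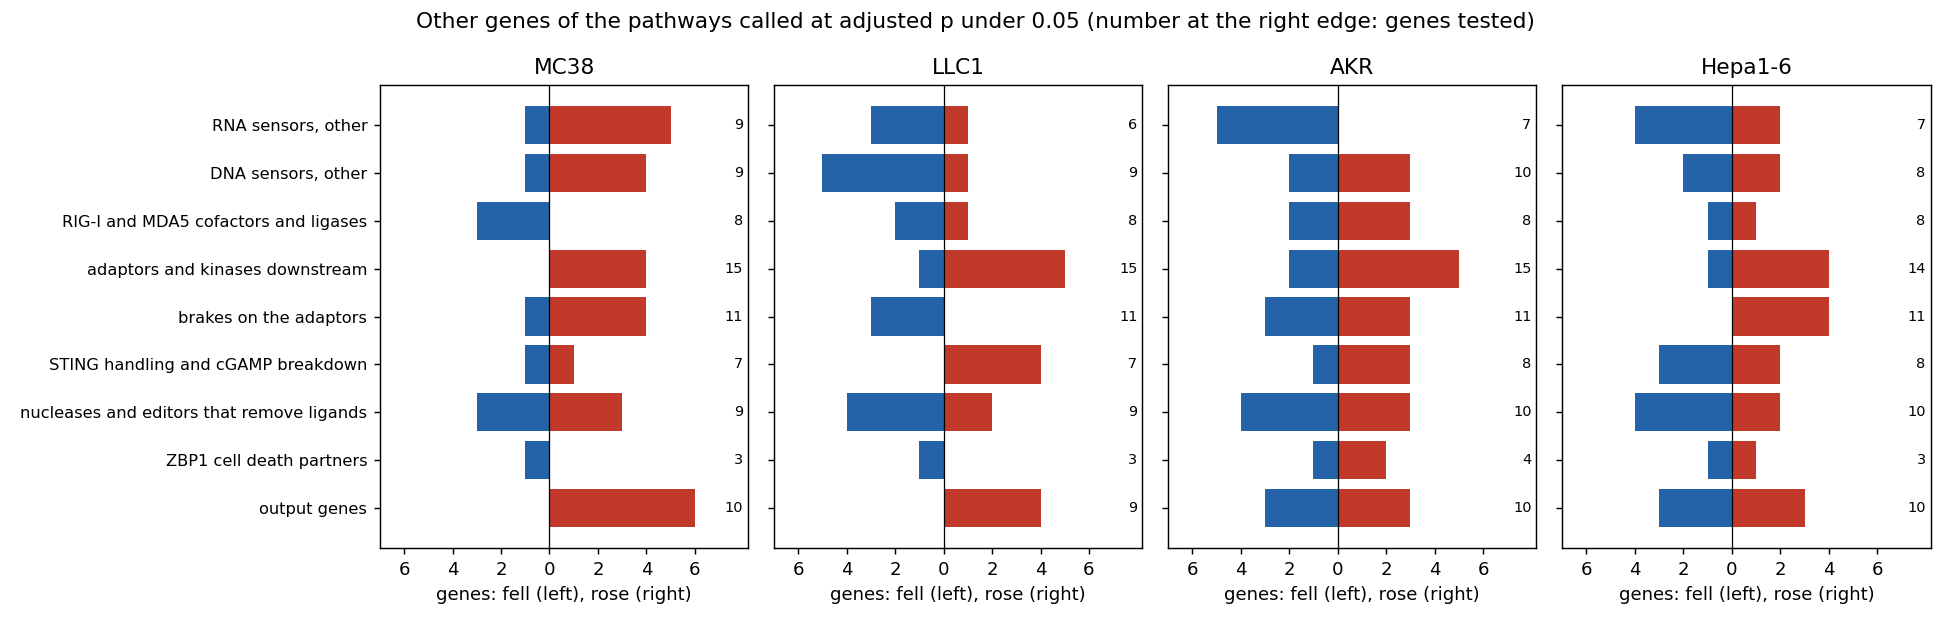
Number of genes of each list that fell (bars to the left, blue) or rose (bars to the right, red) at an adjusted p under 0.05, with the number tested at the right edge of each panel. Output genes rose in 6 of 10 cases in MC38 and 4 of 9 in LLC1, and split 3 to 3 in AKR and Hepa1-6.

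How the 10 genes moved relative to one another was described over the 24 libraries, with each gene centred on its mean in the line. These libraries share the effect of the guide, so the correlations carry no p. Mavs and Tbk1 had a Pearson r of 0.745, Dhx58 and Mavs 0.649, and Dhx58 and Tbk1 0.607. Ddx58 and Irf3 went in opposite directions, with r = -0.615. When each group was centred on its own mean, which removes the guide, Mavs and Tbk1 had r = 0.117 and Ddx58 and Irf3 had r = -0.357. Most of the shared movement of Mavs and Tbk1 was therefore between groups and not between libraries of a group.

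**Figure D4:**
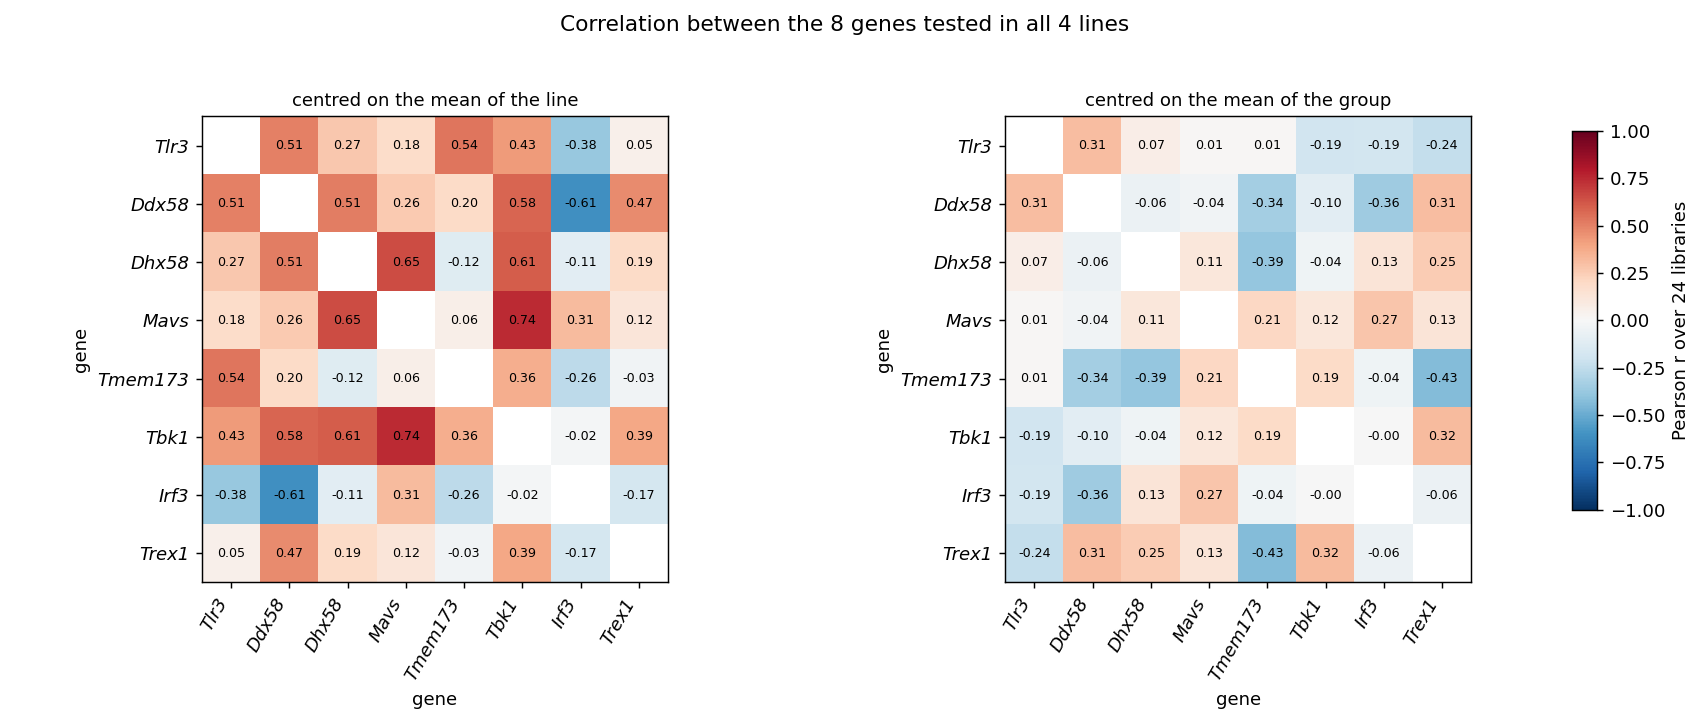
Pearson r between each pair of the 8 genes tested in all lines, over 24 libraries, with values centred on the line (left) and on the group (right). The red block of Dhx58, Mavs and Tbk1 on the left (0.607 to 0.745) is not present on the right.

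Among the 12674 genes tested in all lines, those most like each of the 8 over the 24 libraries, centred on the line, were as follows. Ddx58 was closest to Pcx (r = 0.945), Myo18a (0.919) and Selenop (0.911), and Tbk1 to genes that included Ttyh3 (0.935) and Trafd1 (0.919). Irf3 was closest to Pxn (0.914), Arhgap22 (0.883) and Snrpa (0.876), and Mavs to Zfp40 (0.911), Mpp5 (0.901) and Rin2 (0.877). Dhx58 had Nqo1 (0.851), the interferon-induced gene Oas3 (0.839) and Slc31a2 (0.817) as its nearest. Tmem173 had Ap1m1 (0.851), Rbx1 (0.848) and Snw1 (0.836), Tlr3 had Gm3756 (0.809), Cdc42 (0.80) and Acy3 (0.788), and Trex1 had 4632427E13Rik (0.754), Traf6 (0.708) and Hectd4 (0.693). Centred on the group, r was lower for most of these. It was 0.452 for Nqo1, 0.364 for Oas3 and -0.025 for Slc31a2 with Dhx58, 0.582 for Ttyh3 and 0.139 for Trafd1 with Tbk1, and 0.767 for Pxn with Irf3, while 4632427E13Rik with Trex1 was at 0.801.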

How the data were processed

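The authors deposited 1 table per line of log2 normalised counts. The mouse build mm10 and the tools FastQC 0.11.5, STAR and DESeq2 are named per the submitters' processing notes, and per the labels' protocols libraries were strand-specific and paired-end. The gene counter, its annotation and its use of strand are not given in the sources used here. Back on the linear scale, 100% of values were whole multiples of 1 step per library within 0.05 reads, so the unit was taken as log2(count / size factor + 1), and reads were recovered from it. The added constant draws fold changes of low genes toward 0. A gene without a read in any library of a line is not listed there.

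Within each line, limma 3.58.1 in R 4.3.3 compared 3 sgB2m with 3 sgNT libraries by its moderated test (two-sided, variance trend on), with Benjamini-Hochberg adjustment over all genes tested in the line. Differences between lines came from limma models of 24 libraries (an F test of the interaction of line and guide) or of 12 (pairs of lines, adjusted over all 6 pairs and all genes). Alternatives were another added constant, no or a stricter filter, quantile or median scaling, no variance trend, a replicate block, a spread pooled over all libraries, each library left out, and limma-voom on recovered reads. The script was tested on simulated data. No 2 libraries of a group were copies of each other (chi-square per gene of 4.08 to 27.42 over 24 pairs). In 1 title the guide is spelled ssgNT, and the description of that sample gives sgNT.

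The members and lists were chosen with earlier results of these data known. B2m and the 10 genes are named in every line. Of the other pathway genes, those called with a log2 change of at least 0.58 in size were named, at most 3 per list and direction in a line. The 3 genes with the highest r were named as most like each member tested in all 4 lines, of which 1 is not reported here.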

Additional observations from a re-analysis of the deposited data

Results flagged for a closer look

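For 7 genes the change with the B2m guide differed between the 4 lines in limma's interaction test, with adjusted p of 0.00327 for Tlr3, 1.06e-05 for Ddx58, 0.015 for Dhx58, 0.00596 for Mavs, 0.000556 for Tmem173, 0.000923 for Tbk1 and 0.000407 for Irf3. Ifih1 and Zbp1 were too low in at least 1 line for that test and were compared between pairs of lines. Ifih1 changed differently in MC38 than in AKR (adjusted p = 1.03e-06) and than in Hepa1-6 (adjusted p = 1.58e-06), and Zbp1 changed differently in MC38 than in Hepa1-6 (adjusted p = 0.00623). In MC38 Zbp1 was tested because it was high in sgB2m, with 1 sgNT library at the level for testing, which limits that comparison. Of all genes tested for the interaction 69.8% passed, so such a difference was common. No group was examined for a single deviating library, since groups held 3.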

How the results depend on the processing

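Of the 21 calls among the 10 genes, 12 were kept in every alternative in which the gene was tested and 9 were lost in at least 1, and no called value changed sign. Lost besides those named above were MC38 Tlr3 with a spread pooled over 24 libraries (adjusted p = 0.338), Hepa1-6 Tlr3 with the same (0.0611), LLC1 Tlr3 without a filter (0.176) or an intensity trend (0.152), and AKR Ifih1, Hepa1-6 Irf3 and Hepa1-6 Trex1 in 10, 12 and 8 alternatives. Of the 39 pathway calls that were named, which were chosen by size of change, 28 were kept throughout. The stability of the other pathway calls is not given.

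Hepa1-6 had 5 members called of 10 tested, but 3 without a filter and 3 with the replicate block. With the pooled spread 1 was called, but only 8 members were tested that way, and Zbp1 was not among them. Leaving out 1 library gave 3858 to 6082 genes and 5 to 6 members called in MC38, 5623 to 6163 and 4 to 6 in LLC1, 5733 to 6657 and 3 to 5 in AKR, and 4790 to 5058 and 2 to 4 in Hepa1-6. Same-numbered libraries of the 2 guides did not deviate together (r from -0.028 to 0.051 over 12 pairs), so the numbers were not taken as pairs. With the replicate block 5120, 6306, 6494 and 5589 genes were called in MC38, LLC1, AKR and Hepa1-6, and 6, 5, 4 and 3 members. The block ended the calls of AKR Ifih1 (0.0748), Hepa1-6 Irf3 (0.0675) and Hepa1-6 Trex1 (0.0523) and the interaction of Dhx58 (0.0534).

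Values that changed sign all belonged to members that had not passed. Over runs that left out 1 library MC38 Tmem173 ranged from -0.12 to 0.033, LLC1 Irf3 from -0.18 to 0.015, AKR Tlr3 from -0.12 to 0.045 and Hepa1-6 Dhx58 from -0.18 to 0.115. By limma-voom on recovered reads, an alternative chosen after seeing the data, AKR Tlr3 was at 0.011 and Hepa1-6 Dhx58 at 0.020. The quasi-likelihood count test planned for recovered reads was not run, and limma-voom on the same reads was added instead. The causes were not tested. Counts were low for Ifih1 and Zbp1 in LLC1, Zbp1 in AKR and Trex1 in every line, and whether depth or expression limits them was not tested.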
